A study of Rattus norvegicus with 4 samples.

Results

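The genes described here are 10 genes of the hedgehog pathway and its surroundings: Hhatl, Shh, Ptch1, Hhip, Smo, Sufu, Gli1, Gli2, Gli3 and Foxa2. Hhatl, Gli2 and Foxa2 were taken in because their probes were higher after thyroid hormone in these same arrays, and the other 7 because they form the core of the pathway. Probes carried an accession each, and matching to RefSeq gave a probe to 8 of the 10 genes (12 probes), out of 13440 genes and 41012 probes in all. No probe was matched to Gli1 or Hhip, and these genes have no value here. The T3 over saline values of the 10 genes are therefore a description of the arrays. No p is given for them, and where they are counted against the threshold over all probes, that threshold is the one that chose them.

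RNA came from 8 male rats of the Sprague Dawley strain, from blocks of the hypothalamus between bregma -2.12 and -4.52 mm. All were hypothyroid: they drank methimazole (MMI, which blocks thyroid hormone synthesis) at 0.025% for 22 days, from 7 weeks of age. On day 21 each rat was injected with saline (4 rats) or with triiodothyronine (T3, the active thyroid hormone) at 25 µg per 100 g (4 rats), and it was killed 24 h later, at 10 weeks. Each of 4 two-colour arrays, all on 1 slide scanned once, set a T3 rat against a saline rat, with the T3 rat labelled in Cy5 on arrays 1 and 3 and the saline rat on arrays 2 and 4, the partner being in Cy3. There was no group with normal thyroid function, so the values compare hypothyroid rats with and without 1 T3 injection.

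Hedgehog ligands such as Shh are secreted proteins that carry a palmitate added by the acyltransferase Hhat. A ligand binds the receptor Ptch1 and lifts its block on the membrane protein Smo, and the signal then passes through the primary cilium to the Gli transcription factors, which Sufu holds back at rest. The pathway patterns the ventral neural tube, where Foxa2, a forkhead factor, marks the floor plate. Hhatl is a relative of Hhat that is known from heart and skeletal muscle and has been reported to interfere with the palmitoylation of Shh.

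The 250 bases upstream of the annotated start of 4 of these genes are shown because they set the genes with high T3 over saline ratios (Hhatl, Gli2 and Foxa2) beside Ptch1, the classical Gli target. They are RefSeq sequences of the rat assembly GRCr8, written 5′ to 3′ on the strand of the gene. Promoters were listed for 8 of the 10 genes, all but Shh and Gli1. Capitals mark matches to the motifs described after the sequences.
Hhatl, chr8:130331510-130331759, minus strand: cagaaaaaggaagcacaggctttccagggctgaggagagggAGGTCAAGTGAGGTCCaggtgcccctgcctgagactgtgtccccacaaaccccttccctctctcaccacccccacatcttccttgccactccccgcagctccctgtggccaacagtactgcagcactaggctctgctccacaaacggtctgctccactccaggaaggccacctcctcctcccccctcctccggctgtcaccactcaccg
Gli2, chr13:32716419-32716668, minus strand: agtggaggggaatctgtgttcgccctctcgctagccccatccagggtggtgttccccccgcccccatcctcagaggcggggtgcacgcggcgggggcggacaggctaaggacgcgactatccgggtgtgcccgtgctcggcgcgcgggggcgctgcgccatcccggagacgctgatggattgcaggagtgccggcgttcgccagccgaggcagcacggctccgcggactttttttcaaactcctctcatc
Ptch1, chr17:1555321-1555570, plus strand: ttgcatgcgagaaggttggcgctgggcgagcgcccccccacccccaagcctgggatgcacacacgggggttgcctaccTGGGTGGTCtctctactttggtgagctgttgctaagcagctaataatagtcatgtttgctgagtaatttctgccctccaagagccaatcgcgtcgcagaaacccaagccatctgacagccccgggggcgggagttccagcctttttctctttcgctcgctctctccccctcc
Foxa2, chr3:155927509-155927758, minus strand: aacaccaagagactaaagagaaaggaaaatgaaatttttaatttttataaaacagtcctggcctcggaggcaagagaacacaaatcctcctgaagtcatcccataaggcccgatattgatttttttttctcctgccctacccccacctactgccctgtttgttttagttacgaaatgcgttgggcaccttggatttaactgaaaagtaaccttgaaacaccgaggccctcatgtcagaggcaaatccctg

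Both strands of these windows were searched for the Gli motif GACCACCCA, for the hexamer AGGTCA bound by thyroid hormone receptors, and for the direct repeat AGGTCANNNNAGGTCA, which contains the hexamer. Of the 8 promoters, that of Ptch1 held GACCACCCA, on its minus strand at -172 to -164 from the start (read on the plus strand in the capitals above). The same 9 letters occurred in 0.331% of 27457 RefSeq promoter windows of that length. The Hhatl promoter held AGGTCA, found in 13.7% of all promoters, at -209 to -204 from its start. That hexamer opens a direct repeat with 1 mismatch, A16C, counted from 1 at the 5′ end of the repeat, which ends at -194. A direct repeat with at most 1 mismatch occurred in 0.127% of all promoters (35 of 27457), and the exact repeat in 0. No match to these letters lay in the windows of Gli2, Foxa2, Smo, Sufu, Gli3 or Hhip. The motifs and the allowance of 1 mismatch were chosen after the Hhatl sequence had been seen, and a match is a description of letters, not a binding site or a cause.

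Of the 35 genes with such a repeat, 6 were measured on these arrays. Beside Hhatl, Abcd2, a transporter of very long chain fatty acids into peroxisomes, had the highest T3 over saline ratio, 0.42 ± 0.12 on the log2 scale (SD, n = 4 arrays; limma adjusted p = 0.125). The other 4, Chchd1, Chia, Cmtm8 and Spata20, lay between -0.22 and 0.07. The median of the 5 genes without Hhatl was 0.057, against 0.0043 over all 9295 genes measured.

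Across the pathway, large T3 over saline ratios were seen for 3 genes: Hhatl, at 3.00-fold, Gli2, at 2.36-fold on the brighter of its probes, and Foxa2, at 1.57-fold. Sufu was near a ratio of 1, as was Ptch1 on a probe close to background, and Smo was slightly above it. The probes of Shh and Gli3 were too dim to tell. A probe was taken as measured where 3 or more of the T3 samples, or of the saline samples, had it well above background, which held for 23148 probes that name 9295 genes, and for 6 of the 12 hedgehog probes (1 each for Hhatl, Ptch1, Smo, Sufu, Gli2 and Foxa2). Of these 6 genes, 3 passed a limma adjusted p of 0.05 over all measured probes and 3 did not. Over all genes measured, 0.161% passed in either direction. The genes were chosen from this comparison, so nothing is read from these counts. Bulk tissue cannot tell more cells of a type from more RNA per cell. The plot of levels by rat shows all 12 probes.

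**Figure D1:**
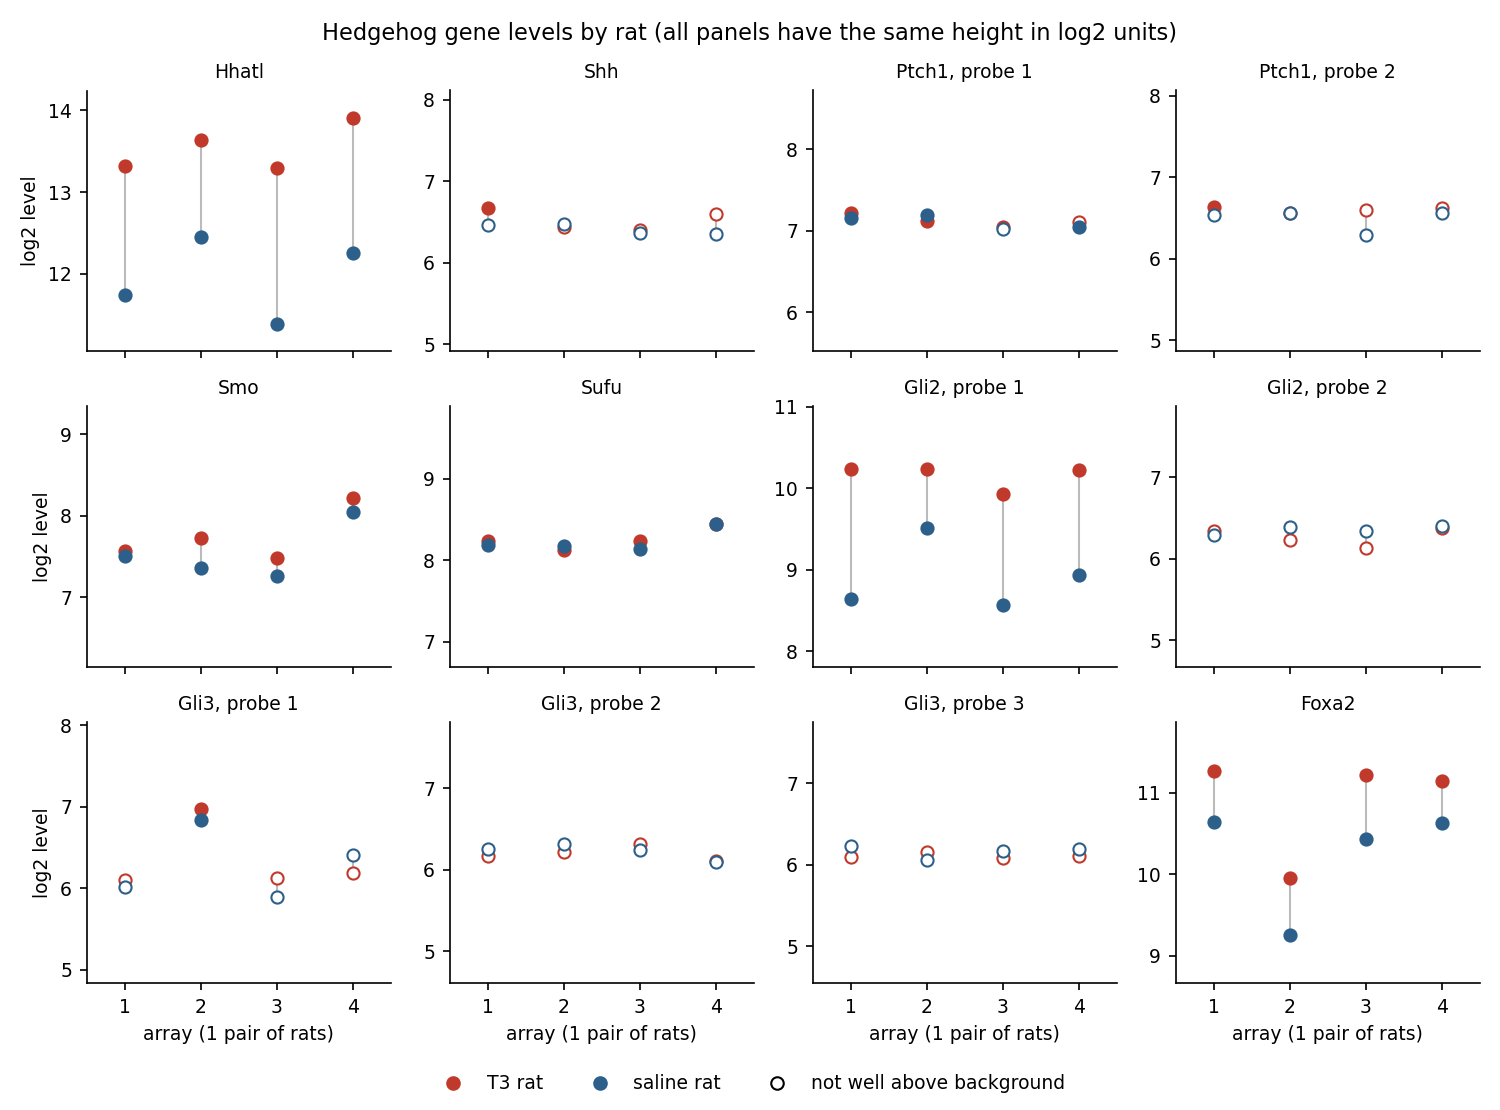
Normalized log2 level of each matched probe (y axis) in the T3 rat (red) and the saline rat (blue) of each array (x axis, arrays 1 to 4), with a grey line joining the pair and open circles where the probe was not well above background. All panels have the same height in log2 units but start at different levels, and levels of different probes are not comparable. The T3 rats lie above the saline rats for Hhatl, Foxa2 and the first Gli2 probe on 4 of 4 arrays, and the second Gli2 probe is open throughout.

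Shh, the main ligand of the brain, was not well above background on any array in the saline channel and on 1 of 4 arrays in the T3 channel. Its log2 ratios were 0.21, -0.03, 0.05 and 0.25 on arrays 1 to 4, and the levels of the groups overlapped. These values are at the background of the array and give no measure of Shh.

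The receptor Ptch1 had 2 probes. The brighter was well above background on 3 of 4 arrays in each channel. Its log2 levels were 7.22, 7.12, 7.04 and 7.10 in the T3 rats of arrays 1 to 4 and 7.16, 7.19, 7.03 and 7.05 in the saline rats. The groups overlapped, with a mean log2 ratio of 0.01 ± 0.06 (SD, n = 4 arrays), against a median SD of 0.163 over all measured probes. The ratios given by the scanner software for this probe varied more, at 0.03, -0.28, -0.06 and 0.36. The small SD of so dim a probe thus depends on the processing. The dimmer probe was well above background on 1 array in the T3 channel and on none in the saline channel, with a mean ratio of 0.12 ± 0.13. Ptch1 is itself transcribed in response to Gli factors. Its brighter probe gave ratios between -0.08 and 0.06 at levels close to background, and pathway activity was not tested.

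Smo, the membrane protein that carries the signal inward, was measured on all arrays. Its log2 levels in the T3 rats were 7.57, 7.72, 7.47 and 8.21, and in their saline partners 7.50, 7.35, 7.26 and 8.04. Both rats of array 4 were the highest of their groups and the groups overlapped, while within each array the T3 rat was the higher. The 4 ratios were 0.07, 0.37, 0.21 and 0.17, a mean of 0.21 ± 0.12. Ratios above 0 on all 4 arrays were found for 7.93% of measured probes, and below 0 on all for 7.89%.

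Sufu, the cytoplasmic inhibitor that binds Gli proteins, had log2 levels of 8.24, 8.13, 8.23 and 8.44 in the T3 rats and of 8.18, 8.17, 8.14 and 8.45 in the saline rats. Neither group was the higher, with ratios above 0 on 2 of 4 arrays and a mean of 0.02 ± 0.06.

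Among the transcription factors, Gli2, the main activator of the family, differed between its 2 probes. On the brighter probe, the log2 levels were 10.24, 10.23, 9.93 and 10.22 in the T3 rats of arrays 1 to 4 and 8.64, 9.51, 8.57 and 8.94 in the saline rats. Every T3 rat was above every saline rat, by 0.41 at the closest. The T3 levels lay within 0.31 of each other and the saline levels within 0.95, with the saline rat of array 2 the highest of its group. The saline levels were higher on arrays 2 and 4, with saline in Cy5, than on arrays 1 and 3, so rat and dye cannot be told apart in their spread. The paired log2 ratios were 1.59, 0.72, 1.36 and 1.28, a mean of 1.24 ± 0.37, which is 2.36-fold (1.65-fold to 3.02-fold over the arrays). Levels that did not overlap, with T3 higher, were found for 0.981% of probes with a level in all 8 rats.

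The second Gli2 probe was not well above background on any array in either channel. Its ratios were 0.04, -0.16, -0.21 and -0.02, at log2 levels of 6.13 to 6.40. The 2 probes were matched to the same RefSeq transcript, and since the second was not above background, the value of Gli2 rests on 1 probe.

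Gli3, in neural tissue mainly a repressor, had 3 probes, and none was measured. On 2 of them no array was well above background. The third was well above background in both rats of array 2 alone, with log2 levels of 6.98 after T3 and 6.84 after saline, against 5.89 to 6.41 in the other 6 rats. The mean ratios of the 3 probes were -0.05, 0.06 and -0.02.

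Foxa2 was well above background in all 8 rats. Its log2 levels were 11.27, 9.96, 11.22 and 11.14 in the T3 rats and 10.64, 9.25, 10.44 and 10.63 in the saline rats. Both rats of array 2 were low, by more than 1 log2 unit against their groups, so the groups overlapped over all arrays. On the other 3 arrays the T3 rats lay between 11.14 and 11.27 and the saline rats between 10.44 and 10.64. Within each array the T3 rat was the higher, with log2 ratios of 0.63, 0.71, 0.78 and 0.51, a mean of 0.66 ± 0.12 and 1.57-fold (1.42-fold to 1.72-fold). Without array 2 the mean was 0.64. In the authors' deposited table the ratios of this probe were 0.23, -0.09, 0.04 and -0.02, with no common direction, so the Foxa2 ratio is found in the values from the scanner files and not in the authors' table.

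Foxa2 also marks midbrain dopamine neurons, which border the caudal hypothalamus, so markers of those cells are given beside it. Of 16 listed midbrain dopamine and floor plate markers 8 were measured, 0 passed the adjusted threshold (limma) and 5 had an unadjusted p under 0.05, against 9.26% of all genes. Their median log2 ratio was 0.29, with 7 of 8 above 0, against 51.9% of all genes. Th, the rate-limiting enzyme of catecholamine synthesis, had log2 levels of 12.87, 12.02, 13.01 and 12.66 in the T3 rats and of 12.30, 11.38, 12.59 and 11.95 in the saline rats. Both rats of array 2 were the lowest of their groups, and the T3 rat was the higher on all 4 arrays. The Th ratio was 0.59 ± 0.12 (limma adjusted p = 0.0563, or 0.0353 with no filter on dim probes).

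Ddc, the decarboxylase that follows Th, had a ratio of 0.46 ± 0.13 (limma adjusted p = 0.101). Slc18a2, the vesicular monoamine transporter, had a ratio of 0.35 ± 0.05 (limma adjusted p = 0.149) and its second probe one of 0.37. Both genes had a T3 rat above its saline partner on 4 of 4 arrays, as did the dopamine receptor Drd2, at 0.22 ± 0.08. Th, Ddc and Slc18a2 serve dopamine cells of the hypothalamus as well as of the midbrain. Other markers of the list differed from Foxa2 by array. Aldh1a1, a retinaldehyde dehydrogenase of some dopamine neurons, had ratios of 0.80, -0.01, 0.74 and 0.62 (mean 0.54 ± 0.37), with its highest saline level, 11.84, on array 2. Calb1, a calcium-binding protein, had a ratio of 0.08 ± 0.09, and Spon1, a secreted floor plate protein, one of -0.03 ± 0.07 on 3 arrays. Both rats of array 2 had the highest levels of their groups in Calb1 (12.83 and 12.77) and in Spon1 (11.39 and 11.40). In Ddc, Slc18a2 and Drd2, as in Foxa2 and Th, both rats of array 2 had the lowest levels of their groups. The cause of these differences by array was not tested.

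The summed level of the 8 markers was 15.59 to 16.10 on the log2 scale in the T3 rats and 15.23 to 15.67 in the saline rats. The defining markers Pitx3, Lmx1a and En2 were not measured, being too dim, as were Foxa1 and Corin, and no probe was matched to Slc6a3. Nr4a2, which dopamine neurons need to form, was measured, with a ratio of 0.08 ± 0.23 and of -0.27 on array 1. In the authors' deposited table, Th, Ddc and Slc18a2 had mean ratios of -0.05, -0.16 and -0.15, while Aldh1a1, Calb1 and Drd2 had 1.09, 0.35 and 0.10, and Nr4a2 and Spon1 -0.04 and -0.07. The part of these cells in the Foxa2 values was not tested.

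**Figure D2:**
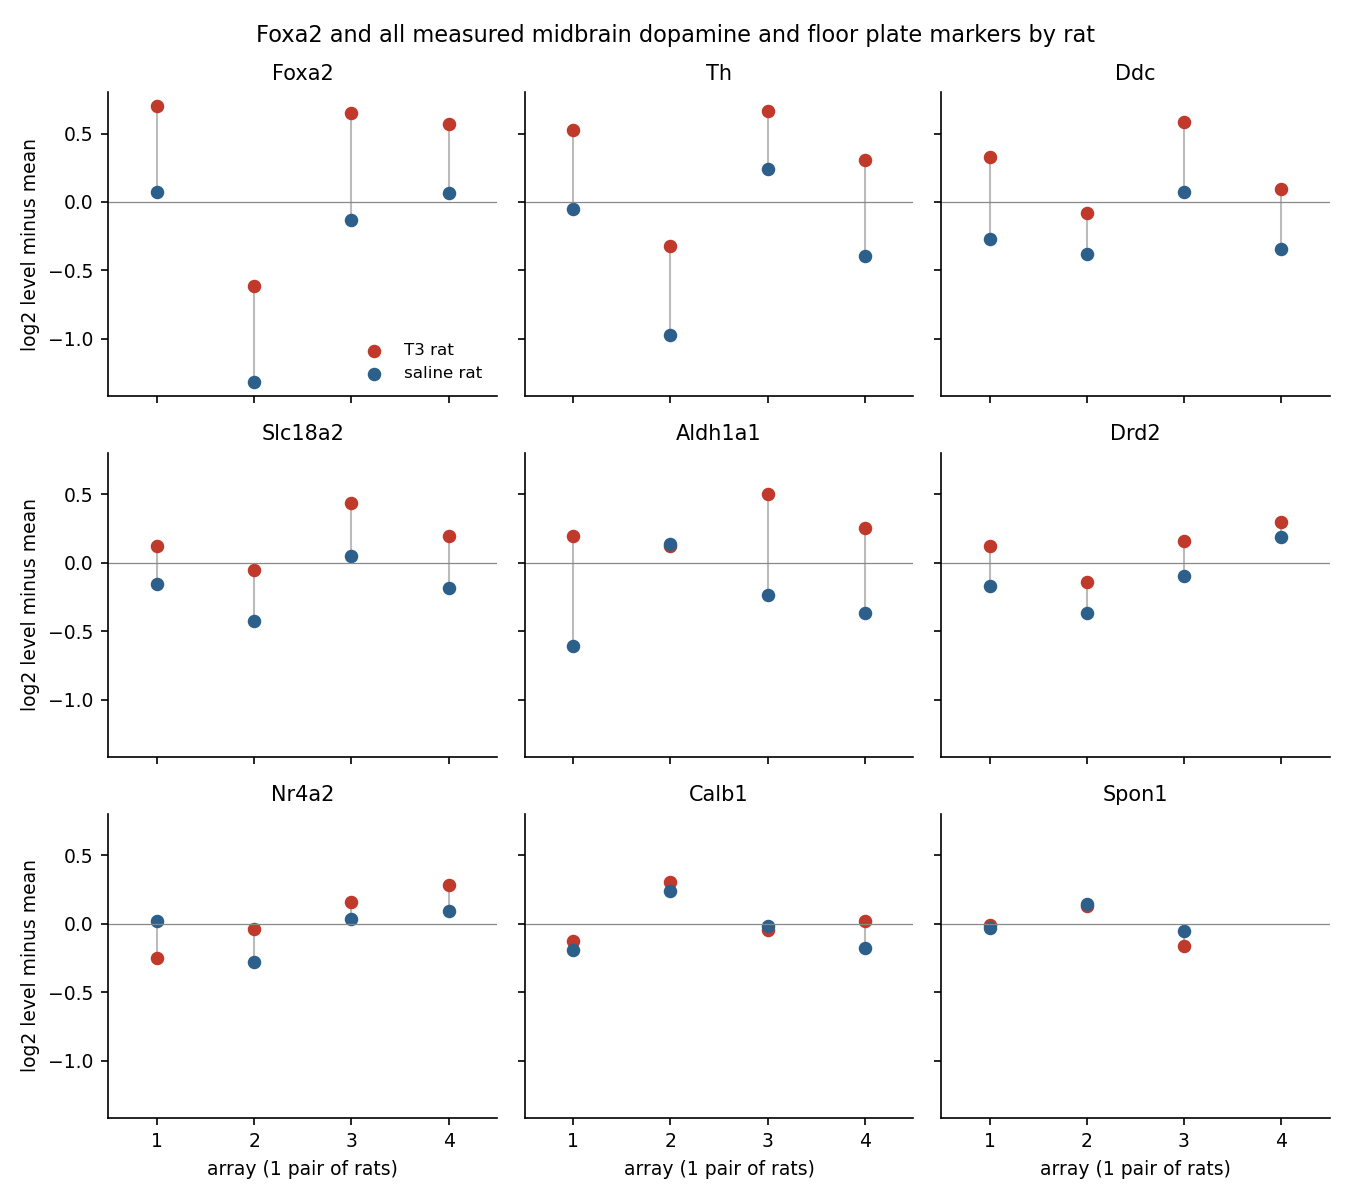
Log2 level of Foxa2 and of the 8 measured midbrain dopamine and floor plate markers in each rat minus the mean of that gene over the rats with a value (y axis), by array (x axis), with the T3 rat in red, the saline rat in blue and a grey line joining the pair. Foxa2, Th, Ddc, Slc18a2 and Drd2 have the T3 rat above its partner on all 4 arrays and their lowest levels of both groups on array 2, whereas Calb1 and Spon1 have their highest levels there and Aldh1a1 has a ratio of -0.01 there.

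Hhatl had the largest ratio of the set. Its log2 levels were 13.32, 13.63, 13.30 and 13.90 in the T3 rats and 11.74, 12.44, 11.39 and 12.25 in the saline rats. Every T3 rat was above every saline rat, by 0.85 at the closest. The saline rats spanned 1.06 log2 units and the T3 rats 0.60. Both groups were higher on arrays 2 and 4, with T3 in Cy3, than on arrays 1 and 3. Rat and dye cannot be told apart in this spread. The paired ratios were 1.58, 1.19, 1.91 and 1.65, a mean of 1.58 ± 0.30, or 3.00-fold (2.28-fold to 3.76-fold).

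The brightness behind these values was far above background in both dyes. Before normalization the Hhatl spot of array 1 read 17302 in Cy5 for T3, over a background of 103, and 2609 in Cy3 for saline, over 53. With the dyes the other way on array 2 it read 8030 in Cy3 for T3 and 9664 in Cy5 for saline. Cy5 was the brighter dye over the whole of array 2, with a median spot of 268.5 against 127 in Cy3, and the normalized log2 ratio there was 1.19. In the authors' deposited table the Hhatl ratios were 2.32, 2.44, 2.51 and 2.31, higher than from the scanner files on all 4 arrays and by more than 1.5 times on average.

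Since T3 was in either dye on a pair of arrays, the effect of the dye could be tested for these genes apart from T3. The Hhatl ratio was 1.74 on average with T3 in Cy5 and 1.42 with T3 in Cy3, a difference that did not pass (limma with a dye term, adjusted p = 0.447). For Gli2 the averages were 1.48 and 1.00 (limma adjusted p = 0.317) and for Foxa2 0.70 and 0.61 (limma adjusted p = 0.734). Over all measured probes 0 passed for the dye, that is 0%, while 3938 (17.0%) had an unadjusted p under 0.05 (limma). With a pair of arrays in each orientation the adjusted test can miss a dye effect, so nothing is concluded from a difference that did not pass. The plot of ratios by probe separates the orientations.

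**Figure D3:**
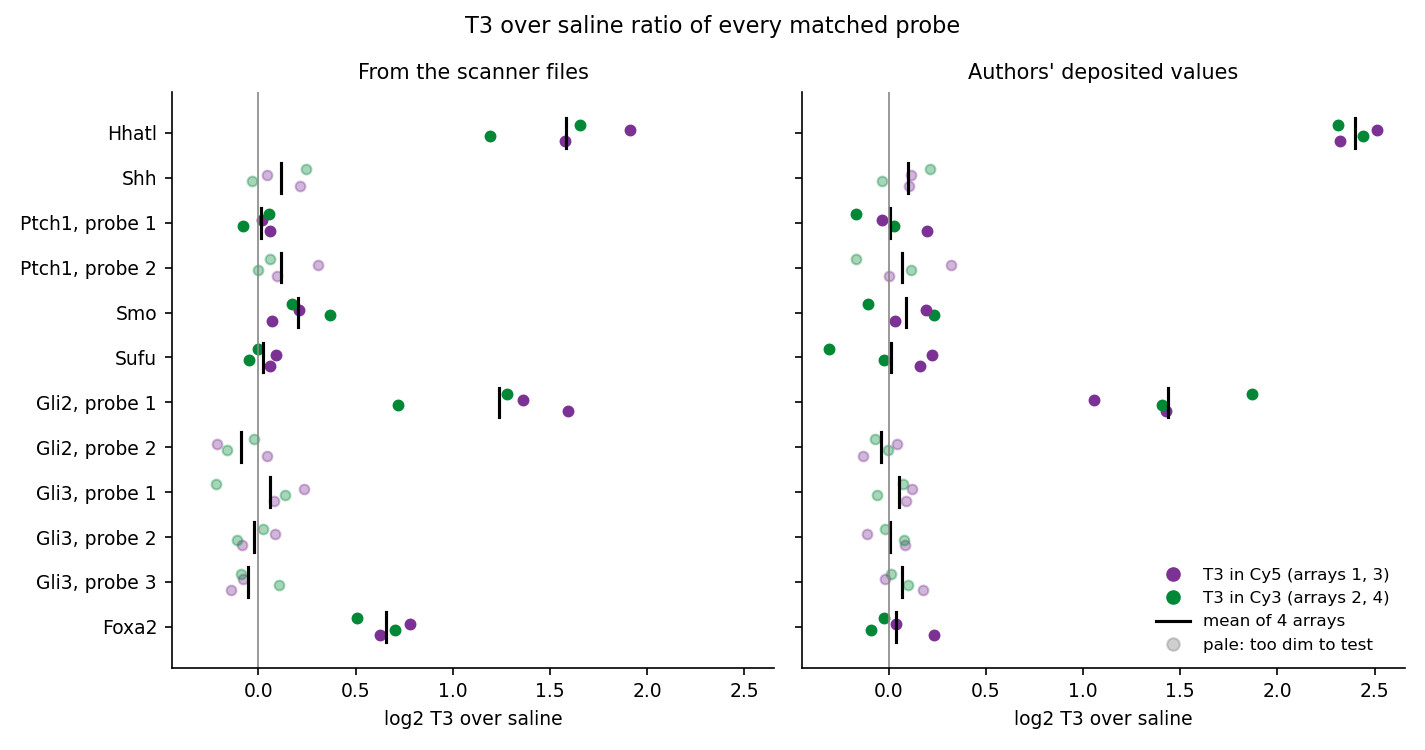
Log2 T3 over saline ratio (x axis) of each of the 12 matched probes (y axis) on each array, from the scanner files on the left and in the authors' deposited table on the right, with T3 in Cy5 in purple, T3 in Cy3 in green, the mean of 4 arrays as a black bar and probes too dim to be measured in pale colours. Hhatl and the first Gli2 probe are to the right of 0 in both panels, while Foxa2 averages 0.66 on the left and 0.04 on the right.

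Heart and skeletal muscle are tissues in which Hhatl is usually found, and their markers had small ratios on these arrays. Of 22 listed muscle and heart markers 8 were measured, 0 passed (limma) and 0 had an unadjusted p under 0.05. Their median ratio was 0.06. Their summed log2 level was 13.08 to 13.55 in the T3 rats and 13.00 to 13.54 in the saline rats. Myh6, the heart myosin heavy chain, had a ratio of 0.20 ± 0.24 and Pygm, the muscle glycogen phosphorylase, one of 0.14 ± 0.16. Of 10 listed members of the acyltransferase family to which Hhatl belongs, 7 were measured and 0 passed (limma; 0 also at an unadjusted p under 0.05), with ratios from -0.08 for Lpcat3 to 0.18 for Mboat7 and a median of 0.02. Hhat itself was not among the genes measured, so no value is given for it.

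Relatives of Gli2 and Foxa2 had small ratios too. Of 8 listed Gli-related zinc finger genes 2 were measured, Glis2 at 0.15 ± 0.05 and Zic1 at 0.06 ± 0.14, and 0 passed (limma; 0 also at an unadjusted p under 0.05). Of 40 forkhead genes 12 were measured and 0 passed (limma; 1 had an unadjusted p under 0.05). This was Foxq1, at 0.23 ± 0.17 (limma adjusted p = 0.525). The nearest relatives of Foxa2, Foxa1 and Foxa3, were not well above background on any array in either channel.

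The wider pathway was given by 112 other hedgehog genes, of which 77 had a probe and 64 were measured. None passed the adjusted threshold (limma, 0 of 64), and 6 had an unadjusted p under 0.05, 5 of them higher after T3, against 9.26% of all genes. Their median log2 ratio was 0.0078 and 34 of the 64 were above 0, so that the genes lay about as all genes did. Their summed log2 level was 16.77 to 17.00 in the T3 rats and 16.74 to 17.17 in the saline rats.

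Of the ligands and proteins of ligand release, 8 of 13 were measured, with a median of -0.07 and 2 above 0. Gpc3, a surface proteoglycan that binds hedgehog ligands away from Ptch1, was lower on 4 of 4 arrays, at -0.21 ± 0.15 (limma adjusted p = 0.559), and its second probe was at -0.24. Disp2, of the family that releases the ligand from the cell, was at -0.10 ± 0.16.

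Of the receptors and co-receptors, 4 of 15 were measured, with a median of -0.02 and 0 past the threshold (limma; 1 had an unadjusted p under 0.05). Boc, a co-receptor, was not that gene, at -0.21 ± 0.26 (limma unadjusted p = 0.0826).

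Of the genes of the cilium and cytoplasm, 28 of 46 were measured, with a median of 0.01 and 15 above 0. Spop, an adaptor that sends Gli proteins for degradation, was at 0.25 ± 0.10 on the 3 arrays where its brighter probe was not marked as an outlier, and at 0.18 on its other probe. Dyrk2, a kinase that acts on Gli2, was at 0.27 ± 0.24, with 0.11 and 0.13 on its other measured probes. Neither gene passed over all probes (limma adjusted p = 0.517 and 0.552).

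Of the target genes, 24 of 38 were measured, with a median of 0.04 and 16 above 0. Rab34, a small GTPase of the cilium, was at 0.33 ± 0.19 (limma adjusted p = 0.33) and Mycn, which drives precursor proliferation, at 0.25 ± 0.13 (limma adjusted p = 0.429). Both were higher on 4 of 4 arrays. Spp1, picked out after its value was seen as the highest of the 64, was at 0.68 with an SD of 0.98, larger than its mean. The plot of the pathway by role sets these genes against all genes.

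**Figure D4:**
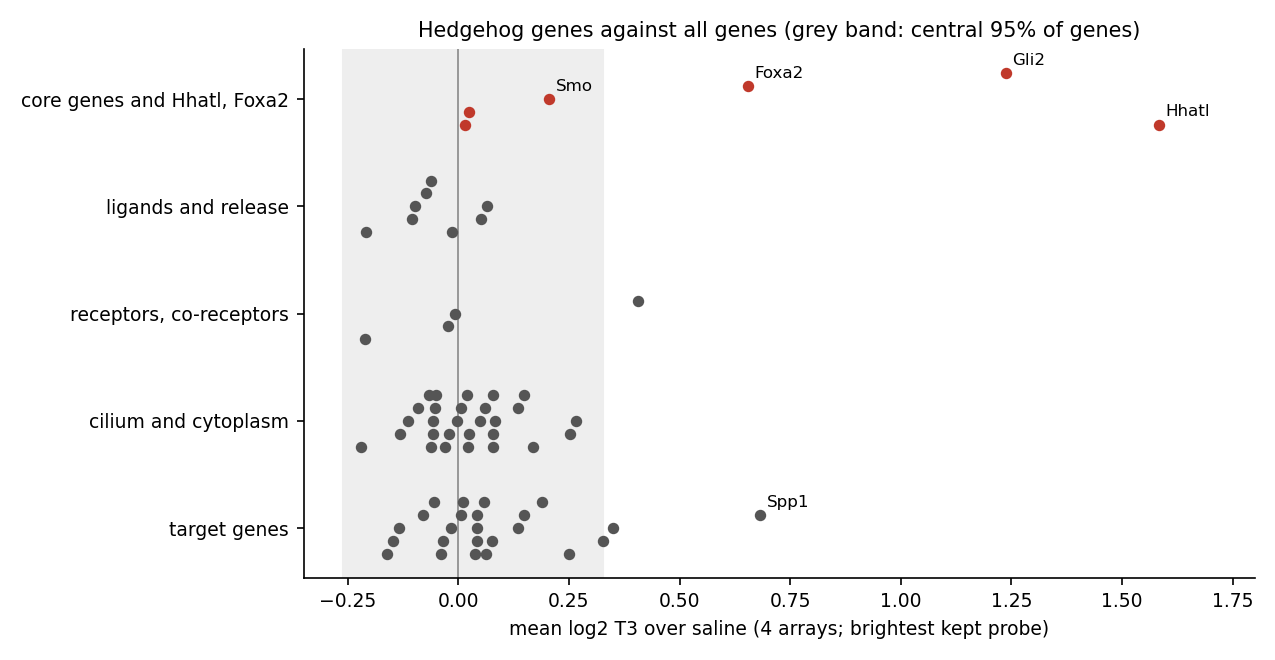
Mean log2 T3 over saline ratio (x axis; gene's brightest measured probe) of the 6 measured hedgehog genes (red) and of the 64 other pathway genes (grey) by role (y axis, with vertical offsets only to separate points). The pale band holds the central 95% of all genes, from -0.26 to 0.33. Hhatl, Gli2 and Foxa2 lie beyond the band, Ptch1, Sufu and Smo within it, and among the other genes Spp1 is the farthest above it.

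By position, the coding genes next to Hhatl, Gli2 and Foxa2 in the RefSeq order gave few values. Of the 2 genes on each side of Hhatl, Zbtb47, Klhl40 and Ccdc13 had no matched probe, and Higd1a, a mitochondrial protein of the hypoxia response, was higher on 4 of 4 arrays, at 0.47 ± 0.12 (limma adjusted p = 0.0932). Around Gli2, Tfcp2l1 was lower on 4 of 4 arrays, at -0.22 ± 0.06 (limma adjusted p = 0.429), with Inhbb at -0.07 and Ralb at 0.03, and Clasp1 without a probe. Around Foxa2, Thbd was at 0.16 ± 0.19, Sstr4 was too dim, and Nkx2-2 and Pax1 had no probe. The neighbours were looked up after the values of the 3 genes were known.

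Over the 4 arrays, the genes with ratios most like those of Hhatl were Arc, induced early in active neurons, then Tnfrsf9 and Gli2 itself. Likeness was the root mean square difference of the 4 log2 ratios, which was 0.31, 0.37 and 0.41. For Gli2 the nearest were Tnfrsf9 (0.23), Cyp26b1 (0.25), an enzyme that clears retinoic acid, and Tnfsf13 (0.26). For Foxa2 they were Mical2 (0.12), Coa7 (0.17) and Smpd3 (0.18). With 4 arrays these are descriptions of similar ratios and nothing more.

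Known T3 response genes checked the labels in the same arrays. Hr, a corepressor and direct target of the T3 receptor, was at 1.18 ± 0.15 (limma adjusted p = 0.0129), and Klf9 at 0.90 ± 0.27 (limma adjusted p = 0.0517), with 1.09 on its second probe (limma adjusted p = 0.0129). Without array 1, 3 or 4 Hr kept its size (1.12 to 1.19) but did not pass (limma adjusted p = 0.0823 to 0.139). The labelled tissue was checked with Agrp, Npy and Pomc, the arcuate neuropeptides, which were well above background on 4 of 4 arrays in both channels. Of other cell types, 0 markers passed the threshold (limma). At an unadjusted p under 0.05, met by 9.26% of all genes, were 4 of 10 measured markers of astrocytes (median log2 ratio -0.15), 6 of 9 of tanycytes and ependyma (-0.21), 5 of 14 of oligodendrocytes (-0.18), 3 of 16 of hypothalamic neurons (-0.14), 2 of 6 of choroid plexus (0.22) and 0 of 9 of blood and meninges (0.01). These counts hold both directions. Slc1a2 and Fgfr3 of astrocytes (0.34 each), Nes of tanycytes (0.37) and Otx2 of choroid plexus (0.44) were the higher ones. All the others in these counts were lower after T3. Gja1 of astrocytes was lower on 4 of 4 arrays, at -0.62 ± 0.23 (limma adjusted p = 0.0932), and Aldoc was at -0.26. Opalin of oligodendrocytes was at -0.47, Calml4 of choroid plexus at -0.33 and Tekt1 of ependyma at -0.29. Among all measured markers, ratios above 0 were found for 3 of 10 of astrocytes and 4 of 9 of tanycytes and ependyma. They were found for 3 of 14 oligodendrocyte and 2 of 16 neuron markers, against 51.9% of all genes. Their part in the hedgehog values was not tested. Some markers varied widely between the pairs of rats. Ttr, of the choroid plexus, was 3.53 log2 units higher in the T3 rat of array 3 and had an SD of 1.77. The SD was 2.74 for Hbb-b1, 2.09 for Alas2 and 2.05 for Hbb, all of blood. It was 1.79 for Oxt and 1.57 for Avp, of hypothalamic neurons. A list median near 0 therefore does not mean that the pairs were alike. The median spot read 110 to 138.5 in Cy3 and 238 to 281 in Cy5. Well above background were 48.6% to 66.9% of spots for the T3 rats and 50.8% to 62.4% for the saline rats.

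Across 13 other ways of processing the arrays, the Hhatl ratio ranged from 1.47 to 2.40, that of Gli2 from 1.12 to 1.45, that of Foxa2 from 0.04 to 0.70 and that of Smo from 0.09 to 0.30, all above 0. The lowest Foxa2 and the highest Hhatl value are those of the authors' table. The side of the adjusted threshold, which chose these genes and supports nothing here, also changed: over the 13 ways Hhatl passed in 7, Gli2 in 5 and Foxa2 in 3. Without array 1, 3 or 4 no probe of any gene passed, and without array 2 70 probes did, against 23 with all arrays. The plot of settings shows the sizes under each way.

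**Figure D5:**
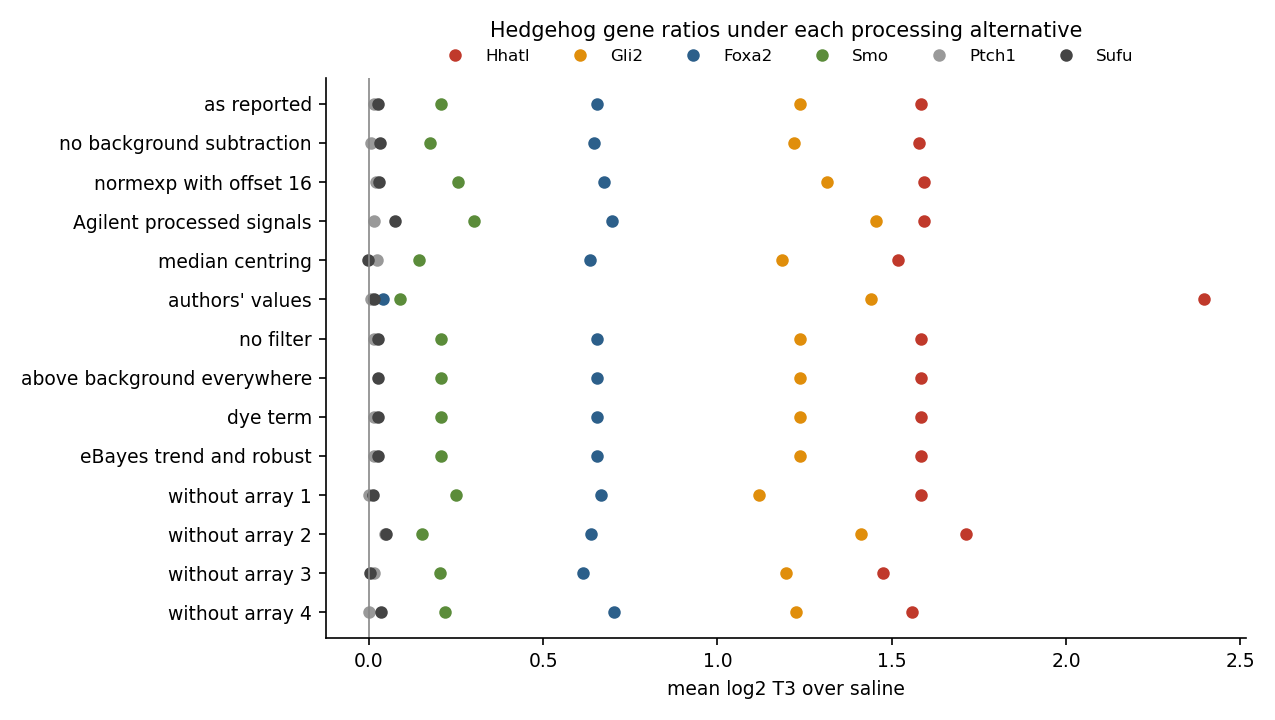
Mean log2 T3 over saline ratio (x axis) of the 6 measured hedgehog genes, by colour, as reported and under each processing alternative (y axis). Hhatl and Gli2 stay above 1 throughout, Foxa2 falls to 0.04 in the authors' values, and Ptch1 and Sufu stay near 0.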

How the data were processed

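Values are those of 4 arrays, each pairing a T3 and a saline rat, so the pairing is inside each ratio. The deposited scanner files hold spot and background intensity (median brightness, not normalized), processed intensity, and the log10 Cy5 over Cy3 ratio, made with Feature Extraction 10.7.3.1 for an array annotated on rn4, per the file headers. The authors' deposited table of 41105 values was taken as log2; limma 3.18.9 is named in the submitters' processing notes, and its scale, centring and direction are not stated. Its column medians were 0.0026, -0.0024, 0.0021 and 0.0030. It was read as T3 over saline, since its 93 spike-in probes correlated with the scanner files' T3 over saline ratios in both dye orientations (r of 0.90 to 0.96). Over 41012 probes that correlation, across probes, was 0.16 to 0.36.

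Here, median signals were corrected with normexp (offset 50) and normalized by loess within arrays, with control spots at weight 0, in limma 3.58.1 (R 4.3.3). Control and outlier spots were left out, spots of a probe averaged and ratios turned to T3 over saline. Levels per channel were set by Aquantile scaling. Tests were limma's lmFit and eBayes (2-sided, 3 residual and 4.35 prior degrees of freedom), adjusted by Benjamini-Hochberg over 23148 probes. The fit was tested on simulated data. A gene's value is that of its brightest measured probe. Accessions were matched without version to RefSeq (GRCr8): 16964 probes had 1 symbol and 24048 none. The array number limits the precision, and with 8 rats and 4 replicates per treatment in the labels an array counts as 1 replicate.

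The genes and lists were chosen with earlier results of these data known. All 10 genes are named, with Hr, Klf9, the 2 smallest p-values of each list, the first 3 markers of a cell type list, and the 3 genes of most like ratios; a further gene of this rule is not reported here. Abcd2, Spp1, Ttr, Hbb-b1, Alas2, Hbb, Oxt, Avp, Slc1a2 and Fgfr3 were chosen after their values were seen. So were the further midbrain markers, the genes sharing a motif and the neighbours. Alternatives were no background subtraction, offset 16, processed signals, median centring, the authors' values, no filter, a filter on all arrays, a dye term, a trended robust fit, every matched probe, and leaving out each array.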

Additional observations from a re-analysis of the deposited data

Results flagged for a closer look

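Among 67 values of genes and markers over the 4 arrays, 2 had an array far from the other 3, where chance gives about 1 in 20. Slc18a2, described beside Foxa2, had a ratio of 0.28 on array 1 against 0.37 to 0.38 on the others, a gap of 0.885 of its whole range; all 4 were above 0. Cnp, an oligodendrocyte marker, had 0.12 on array 4 against -0.46 to -0.37, a gap of 0.848 of its range. None of the hedgehog genes stood out in this way.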

How the results depend on the processing

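The count of probes past the threshold (23; 1882 at an unadjusted p under 0.05) was 15 with offset 16, 0 with processed signals (1948 unadjusted), 0 with median centring (131), 10 with the authors' values, 67 with no filter, 15 with a dye term and 0 with a trended robust fit (1162). Leaving out single arrays gave 0 to 70. The other hedgehog genes stayed at 0 in all 14 alternatives run for them, with 0 to 12 at an unadjusted p under 0.05, and the dye effect at 0 in both alternatives run for it. In the authors' values the direction reversed for Lpcat3 (0.048), Zic1 (-0.15), Th (-0.053), Ddc (-0.16), Slc18a2 (-0.15), Actc1 (0.13), Aqp4 (0.014), Gfap (0.0035), Cartpt (0.11), Agrp (0.25), Npy (0.13) and Pomc (0.40). Without 1 array, the sign turned for Zic1 (-0.0088 to 0.095), Crym (-0.056 to 0.37), Actc1 (-0.15 to 0.11), Gfap (-0.66 to 0.046), Mbp (-0.012 to 0.16) and Folr1 (-0.26 to 0.0074). The cause was not tested. Of the other values of named genes under the alternatives, 557 kept their direction and side of the threshold, 5 newly passed and 7 no longer passed. Signal over background limits Shh, Gli3, the dim probes of Gli2 and Ptch1, and Foxa1.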
